A study of Mus musculus with 12 samples.

Results

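Cytosolic ribosomal protein transcripts were described in gastrocnemius, a mostly fast-twitch calf muscle, of wild-type and ERRα-null mice at rest and after exhaustive running. The genes were all those whose symbol in the array's annotation begins with Rpl or Rps and a digit, together with Rplp0, Rplp1, Rplp2 and Rpsa. Symbols of S6 kinases, Rps19bp1, antisense transcripts and named pseudogenes were left out. Of 22180 genes with a probeset (a set of short probes) that carries a single symbol, 68 met this rule, 42 of the large and 26 of the small subunit. The probeset with the highest mean over the arrays stood for each gene. Genes in the lowest 40% by mean, under a log2 level of 5.32, were not tested, which left 55 of the 68 ribosomal protein genes among 13308 tested genes.

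The series held 12 whole-transcript arrays in 4 groups of 3 mice. Wild-type and ERRα-null mice were each studied sedentary and 2 h after an exhaustive treadmill run. All mice were labelled FVB males, 2 to 3 months old, and the arrays of a group were labelled biological replicates. ERRα-null mice lack estrogen-related receptor alpha, the nuclear receptor encoded by Esrra. How the null allele was made is not given in the sources used here. The groups follow the sample titles and descriptions. The source name, another label, gives the opposite exercise state for the sedentary ERRα-null and the exercised wild-type arrays. All levels are log2 values, and a difference of 1 on this scale is a doubling. In bulk muscle, fewer cells of a type and less RNA per cell cannot be told apart.

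The cytosolic ribosome translates nuclear-encoded messages. Its small subunit decodes the message and its large subunit joins the amino acids, and the P-stalk, formed by Rplp0, Rplp1 and Rplp2, recruits the translation factors. Each subunit is built around ribosomal RNA from single copies of most of its proteins. Messenger RNAs of these proteins typically begin with a C followed by a run of pyrimidines, the 5′ terminal oligopyrimidine tract, through which mTOR signalling controls their translation. In muscle, the amount of ribosomes is known to follow growth and loading.

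The annotated transcription starts of 7 of these genes are printed to show the tract, the sequence feature for which the family is known. Each line gives 15 bases before and 15 bases from the start, on the transcribed strand, from RefSeq on GRCm38.p6. Capitals mark the tract, a C followed by at least 4 further C or T bases that begins at the start. Rpl14, Rpl15, Rpl28, Rps6 and Rps27 carry it, and Rps4x and Rpl4 are shown as genes without one at the annotated start. The windows lie at chr9:120571502-120571531 on the plus strand for Rpl14, chr14:18270972-18271001 on the minus strand for Rpl15, chr7:4792950-4792979 on the plus strand for Rpl28, chr4:86857353-86857382 on the minus strand for Rps6, chr3:90213634-90213663 on the minus strand for Rps27, chrX:102189377-102189406 on the minus strand for Rps4x and chr9:64173372-64173401 on the plus strand for Rpl4.
Rpl14: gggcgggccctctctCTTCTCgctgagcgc
Rpl15: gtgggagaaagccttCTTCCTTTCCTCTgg
Rpl28: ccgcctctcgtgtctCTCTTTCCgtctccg
Rps6: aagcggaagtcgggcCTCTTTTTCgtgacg
Rps27: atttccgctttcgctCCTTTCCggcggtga
Rps4x: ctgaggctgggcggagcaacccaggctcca
Rpl4: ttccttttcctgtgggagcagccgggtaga

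Of the 53 ribosomal protein genes with an entry in the RefSeq promoter table, 11 (20.8%) had a tract at an annotated start, against 813 of 27025 genes of that table (3.01%). With the start allowed to lie within 5 bases on either side, the tract was found in 23 of 53 (43.4%) and in 21.2% of all genes. Only the transcribed strand was searched. Rpl23a, Rpl7 and Rpl29 had no entry.

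Esrra was measured first. Its log2 levels were 7.61, 7.57 and 7.41 in sedentary and 7.47, 7.63 and 7.41 in exercised wild-type muscle, against 6.55, 6.89 and 6.68 in sedentary and 6.85, 6.58 and 6.73 in exercised ERRα-null muscle. Every null array lay below every wild-type array, with limma adjusted p of 0.0238 at rest and 0.0227 after exercise. The skeletal muscle markers Acta1, Ckm and Myh4 were above 13 on every array. Some libraries stood apart. The mean centred level of 11 lymphocyte markers was 1.89 in sedentary ERRα-null replicate 1, 1.32 and 1.15 in replicates 2 and 3 of sedentary wild type, and from -0.66 to -0.26 elsewhere. The first of these arrays also carried seminal vesicle transcripts. Liver markers were at 3.01 in sedentary wild-type replicate 1, which had the lowest ribosomal median of all arrays, and at 1.62 in sedentary null replicate 2. Adipocyte markers were at 1.88 in replicate 3 and 1.06 in replicate 2 of sedentary wild type. Xist exceeded the Y-linked Eif2s3y in exercised wild-type replicate 3 and exercised ERRα-null replicates 2 and 3, against their label of male. The mean centred level of 8 slow-fibre markers ran from -0.55 to 0.08 and from -0.03 to 0.52 in sedentary wild-type and null muscle, and from -0.39 to 0.28 and from -0.08 to 0.23 after exercise.

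In sedentary muscle, most ribosomal protein transcripts of ERRα-null mice lay slightly above those of wild-type mice, and no single gene passed the test. The log2 difference was above 0 for 47 of 55 genes, against 49.6% of all 13308 genes, and its median was 0.11 (1.08-fold), against a median of -0.001 over all genes. None of the 55 had an adjusted p under 0.05 in limma, where 0.0827% of all genes did. At an unadjusted p under 0.05, 10 were higher and 1 was lower, against 4.07% and 4.16% of all genes. The 3 null arrays all lay above the 3 wild-type arrays for 15 of 55 genes (6.91% of all genes) and below them for 1 (6.53% of all genes). The median standard error of the difference over these genes was 0.091, about as large as the median difference itself.

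The same direction was seen after exercise. The difference was above 0 for 43 of 55 genes (50.4% of all genes), with a median of 0.08 (1.06-fold) against 0.001 over all genes. No gene had an adjusted p under 0.05 (0.376% of all genes), and at an unadjusted p under 0.05, 8 were higher and 0 lower, against 3.75% and 6.64% of all genes. The null arrays lay above all wild-type arrays for 11 genes (6.64% of all genes) and below for 0 (9.31%). Without the arrays in which Xist exceeded Eif2s3y, which leaves a single exercised null array, the median was 0.05 and 35 of 55 genes were above 0. With only probesets that sit among genes of the same chromosome, an alternative chosen after the data were seen, the median after exercise was 0.04 and 29 of 41 genes were above 0. With the mean of all probesets of a gene it was also 0.04, with 39 of 55 above 0.

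The 2 genotype comparisons share no arrays. Of the 55 genes, 40 had a difference above 0 in both, 5 below 0 in both, and 10 opposite signs. Null and wild-type arrays were apart, with null higher, in both states for Rpl7, Rpl14, Rpl15, Rpl23a and Rpl29, 5 of 55 genes (9.09%), against 137 of 13308 genes (1.03%). Of these 5, only Rpl14 had its chosen probeset among genes of its own chromosome. The probesets of Rpl15, Rpl23a and Rpl29 sat among genes of another chromosome, and the place of that of Rpl7 was unclear. Own-chromosome probesets of Rpl7 and Rpl29, at mean levels of 5.24 and 5.18, lay below the level tested. The interaction of genotype and exercise had a median of -0.03 and was above 0 for 19 of 55 genes (49.4% of all genes). No ribosomal protein gene passed its test, where 0.00751% of all genes did, and 1 was higher and 0 lower at an unadjusted p under 0.05 (1.92% and 3.2% of all genes). Without the arrays in which Xist exceeded Eif2s3y, the median interaction was -0.08, and with arrays weighted by quality it was 0.02.

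**Figure D1:**
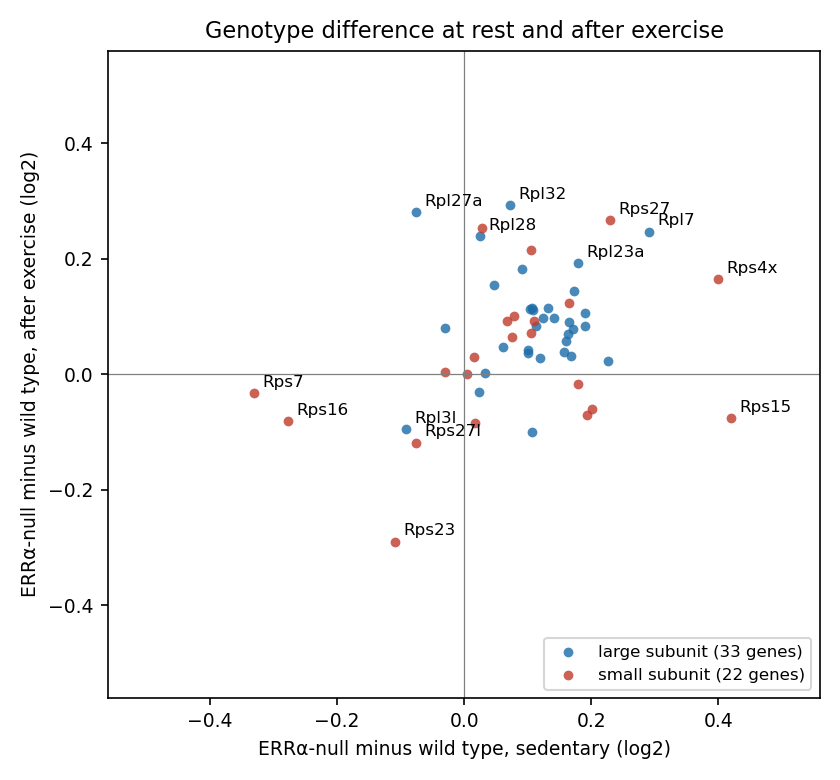
Log2 difference between ERRα-null and wild-type muscle at rest (x axis) and after exercise (y axis) for the 55 tested ribosomal protein genes, each a point coloured by subunit. In the upper right quadrant lie 40 of the 55 genes, Rps15 lies farthest to the right, and Rps7 farthest to the left.

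Averaged over both states, the genotype difference was above 0 for 47 of 55 genes (50.2% of all genes), with a median of 0.10 (1.07-fold). At an unadjusted p under 0.05, 16 were higher and 0 lower, against 5.18% and 7.19% of all genes. Rpl23a, a large-subunit protein beside the exit of the nascent peptide tunnel, was the only one with an adjusted p under 0.05, where 1.43% of all genes had one. By subunit, 31 of 33 large-subunit genes (median 0.11) and 16 of 22 small-subunit genes (median 0.075) were above 0. After exercise the counts were 30 of 33 (median 0.08) and 13 of 22 (median 0.02). The difference between the subunits was not tested.

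All 6 null arrays lay above all 6 wild-type arrays for 3 of 55 genes (5.45%), Rpl14, Rpl23a and Rpl29, against 66 of 13308 genes (0.496%). All 6 null arrays lay below all 6 wild-type arrays for 0 of 55 ribosomal protein genes, against 134 of 13308 genes. That share of all genes is so low that 0 of 55 lies near it.

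Rpl23a had log2 levels of 10.18, 10.29 and 10.25 in sedentary wild-type muscle and 10.45, 10.39 and 10.41 in sedentary null muscle. After exercise the levels were 10.14, 10.18 and 10.19 in wild-type and 10.32, 10.39 and 10.36 in null mice. The lowest null array, 10.32, lay just above the highest wild-type array, 10.29. The averaged difference was 0.19 ± 0.04 (standard error, 12 arrays), or 1.14-fold, with a limma adjusted p of 0.0363. The call was lost on leaving out any 1 of the 12 arrays except sedentary wild-type replicate 3, with adjusted p between 0.0622 and 0.109, and in a fit with a replicate block (adjusted p = 0.0583). Without the arrays in which Xist exceeded Eif2s3y, the difference was 0.17 with an adjusted p of 0.355. The probeset sits among genes of another chromosome than Rpl23a itself, so which copy of the sequence it measures is uncertain.

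Rpl29, a large-subunit protein also known to bind heparin, had levels of 12.05, 12.11 and 12.15 in sedentary wild-type and 12.21, 12.18 and 12.20 in sedentary null muscle. After exercise it was at 12.02, 12.10 and 12.08 in wild-type and 12.30, 12.19 and 12.26 in null muscle. The genotypes did not overlap in either state, and the averaged difference was 0.14 ± 0.03 with an adjusted p of 0.0845. Rpl14, whose start carries the tract printed above, was at 10.38, 10.50 and 10.49 against 10.66, 10.60 and 10.61 at rest. After exercise its levels were 10.40, 10.48 and 10.48 in wild-type and 10.53, 10.53 and 10.57 in null mice. The averaged difference of Rpl14 was 0.13 ± 0.04 (adjusted p = 0.166, limma). Neither gene passed the test.

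Rps4x, the X-linked gene of small-subunit protein S4, had the largest averaged difference. Its levels were 9.69, 9.84 and 9.58 in sedentary wild-type and 10.23, 9.99 and 10.08 in sedentary null muscle, which did not overlap. After exercise they were 9.70, 9.84 and 9.95 in wild-type and 9.87, 10.11 and 10.01 in null muscle, which did. The 3 arrays in which Xist exceeded Eif2s3y, at 9.95, 10.11 and 10.01, were the highest of the exercised arrays, and without them the difference after exercise was 0.10 (adjusted p = 0.94). With all arrays the difference was 0.40 ± 0.10 at rest (adjusted p = 0.197), 0.17 ± 0.10 after exercise (adjusted p = 0.645) and 0.28 ± 0.07 on average (adjusted p = 0.0744, limma), with the change between states at -0.23 (adjusted p = 0.997).

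Rpl7, a large-subunit protein, was at 9.79, 10.05 and 9.65 in sedentary wild-type and 10.14, 10.09 and 10.13 in sedentary null muscle. After exercise it was at 9.75, 9.95 and 9.98 against 10.02, 10.25 and 10.15. Null arrays lay above wild-type arrays in each state, although the highest sedentary wild-type array exceeded the lowest exercised null array. The averaged difference was 0.27 ± 0.07 with an adjusted p of 0.101. Rpl4, at 11.91, 11.90 and 12.09 against 12.18, 12.08 and 12.15 at rest, differed by 0.16 ± 0.04 on average (adjusted p = 0.0853, limma). Without sedentary wild-type replicate 3, its difference was 0.19 with an adjusted p of 0.0182.

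Rpl28, a large-subunit protein with the lowest adjusted p after exercise, was at 11.98, 12.15 and 12.17 in exercised wild-type and 12.36, 12.35 and 12.31 in exercised null muscle. At rest it was at 12.16, 12.24 and 12.30 against 12.22, 12.24 and 12.31. The genotypes were apart after exercise and overlapped at rest. The difference was 0.24 ± 0.06 after exercise (adjusted p = 0.124) and 0.02 ± 0.06 at rest (adjusted p = 0.951, limma), and the interaction of 0.21 had an adjusted p of 0.948. Rpl32 and Rpl27a, also of the large subunit, had the largest differences after exercise, 0.29 ± 0.09 (adjusted p = 0.213) and 0.28 ± 0.18 (adjusted p = 0.689). Rps27, a zinc finger protein of the small subunit, differed by 0.25 ± 0.11 on average with overlapping arrays (adjusted p = 0.375).

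**Figure D2:**
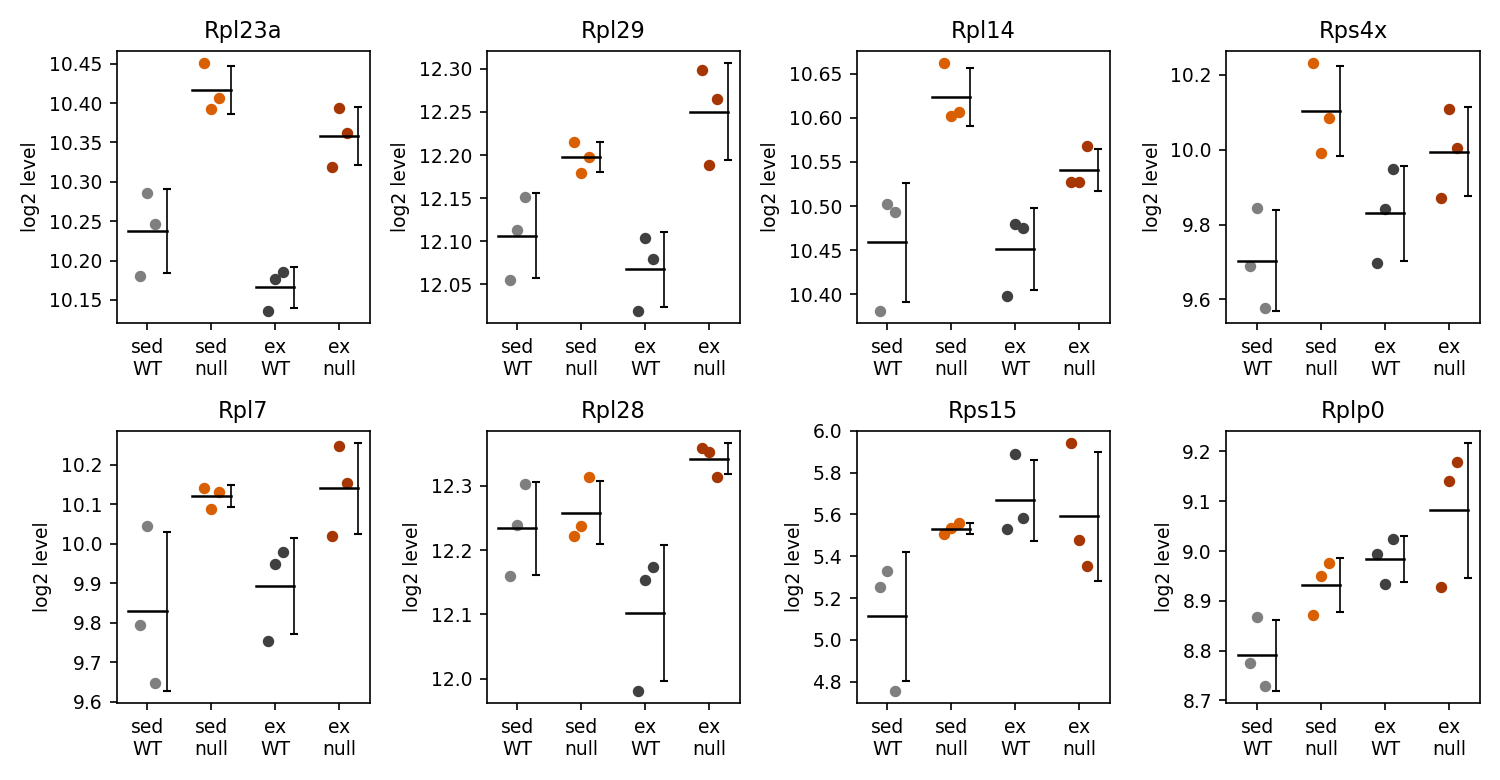
Log2 level of 8 ribosomal protein genes on each array, with 1 point per array (n = 3 per group), the group mean as a line and the SD as a bar, for sedentary (sed) and exercised (ex) wild-type (WT) and ERRα-null (null) muscle. Each panel has its own axis. Null points lie above all wild-type points for Rpl23a, Rpl29 and Rpl14, while Rps15 is lowest in sedentary wild type.

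A few small-subunit genes went the other way. Rps7 was at 5.86, 5.90 and 5.91 in sedentary wild-type and 5.72, 5.51 and 5.45 in sedentary null muscle. It was the only ribosomal protein gene whose null arrays all lay below the wild-type arrays at rest, with a difference of -0.33 ± 0.14 (adjusted p = 0.571). After exercise it differed by -0.03 ± 0.14. Rps16 differed by -0.28 ± 0.20 at rest and Rps23, a protein of the decoding centre, by -0.29 ± 0.18 after exercise, and both had overlapping arrays (adjusted p = 0.791 and 0.678, limma). Rpl5, which carries the 5S ribosomal RNA into the large subunit, differed by 0.11 ± 0.12 at rest and -0.10 ± 0.12 after exercise.

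The stalk proteins did not pass the test in any comparison. Rplp0, the stalk base, was at 8.77, 8.87 and 8.73 in sedentary wild-type, 8.87, 8.95 and 8.98 in sedentary null, 8.99, 8.93 and 9.02 in exercised wild-type and 8.93, 9.14 and 9.18 in exercised null muscle. Its averaged genotype difference was 0.12 ± 0.06 (adjusted p = 0.409). Rplp1, an acidic stalk protein, differed by 0.12 ± 0.09 on average (adjusted p = 0.683), and its lowest value, 10.59, was that of sedentary wild-type replicate 3. Rplp2, its partner, ran from 4.46 to 5.18 over the 12 arrays and was below the level tested. Rpsa, the laminin receptor precursor of the small subunit, differed by -0.03 ± 0.08 (adjusted p = 0.922, limma). Rps6, the substrate of S6 kinase, was at 11.79, 11.89 and 11.92 against 12.10, 11.87 and 11.94 at rest, and its averaged difference was 0.09 ± 0.04 (adjusted p = 0.449). Rps27a, a fusion of ubiquitin with a ribosomal protein, was not analysed here.

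Several members are paralogues, given here with some of their canonical partners. Rpl3l, the striated-muscle paralogue of Rpl3, was at 10.17, 10.25 and 10.13 in sedentary wild-type and 9.91, 10.13 and 10.23 in sedentary null muscle. After exercise it was at 10.15, 10.23 and 10.31 against 10.02, 10.22 and 10.16. Wild-type and null arrays overlapped in both states, and the averaged difference was -0.09 ± 0.06 (adjusted p = 0.624), on the other side of 0 from Rpl3 itself at 0.11 ± 0.13 (adjusted p = 0.826). Rps27l, a p53-responsive paralogue, differed by -0.10 ± 0.06 (adjusted p = 0.601), where Rps27 differed by 0.25. The difference between the 2 genes of a pair was not tested. Rpl7l1 differed by 0.07 ± 0.10, Rpl22 by 0.10 ± 0.06 and Rpl39l by 0.07 ± 0.10, none past the test. Rpl22l1, Rpl10l, Rpl39 and Rps4l, at mean levels below 5.32, were not tested.

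**Figure D3:**
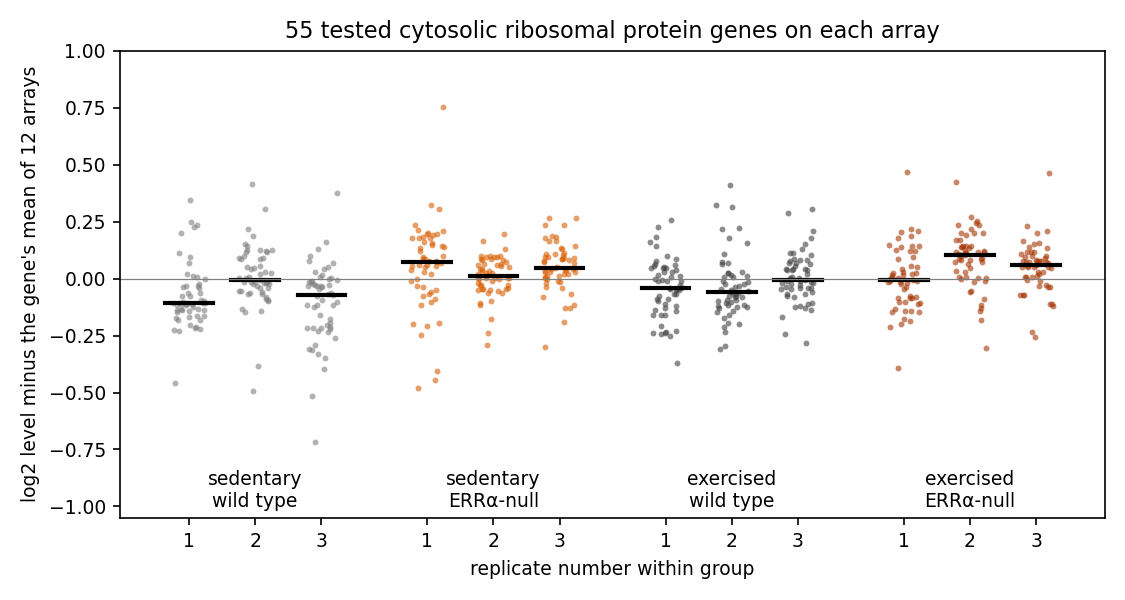
Level of the 55 tested ribosomal protein genes on each of the 12 arrays as the log2 difference from each gene's own mean over all arrays (y axis), by group and replicate (x axis), with the array's median as a line. Sedentary null medians run from 0.01 to 0.07 and sedentary wild-type medians from -0.11 to -0.01.

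Array by array, the median centred level of the 55 genes was -0.108, -0.008 and -0.071 in sedentary wild-type and 0.072, 0.011 and 0.046 in sedentary null muscle. These medians did not overlap. After exercise it was -0.040, -0.061 and -0.004 in wild-type and -0.008, 0.105 and 0.058 in null muscle, which overlapped because exercised null replicate 1 lay just below exercised wild-type replicate 3. The 3 arrays in which Xist exceeded Eif2s3y had the 3 highest exercised medians, -0.004, 0.058 and 0.105. The pooled SD of the medians within groups was 0.043. Sedentary null replicate 1 held the highest value of 18 of the 55 genes. It had the highest lymphocyte markers and also the highest seminal vesicle (8.09) and smooth muscle (0.45) marker levels. Among sedentary wild-type arrays, replicates 2 and 3 also had high lymphocyte markers, and their ribosomal medians were -0.008 and -0.071. Which of these tissues, if any, bears on the ribosomal values was not tested. With the liver, adipocyte and lymphocyte marker levels as covariates, the median genotype difference was 0.12 at rest (41 of 55 above 0), 0.07 after exercise (40 of 55) and 0.10 on average (46 of 55). Seminal vesicle and smooth muscle markers were not covariates. The lymphocyte markers include Ighm, at 11.31 to 12.11 on wild-type and 8.13 to 10.73 on null arrays. After exercise the lymphocyte level was from -0.48 to -0.26 in wild-type and from -0.66 to -0.57 in null muscle, so this covariate partly follows genotype. Leaving out single arrays gave medians from 0.095 to 0.132 at rest and from 0.055 to 0.097 after exercise.

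Replicates of bright probesets agreed more closely, with a median SD within groups of 0.096 for the 30 genes at a level of 9 or more and 0.179 for the 25 below it, a division chosen after the data were seen. Among the 30, 29 were above 0 at rest and 27 after exercise, with medians of 0.11 and 0.10. Of all 1481 tested genes at that level, 58.5% were above 0 at rest (median 0.03) and 47.5% after exercise (median -0.01). Among the 25 dimmer genes, 18 and 16 were above 0.

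For 18 of the 55 tested genes the chosen probeset sat among genes of another chromosome, and for 4 its place was unclear. Among the 18 were Rpl3, Rpl15, Rpl23a, Rpl28, Rpl29, Rplp0, Rps6, Rps19, Rps28 and Rpsa, and Rpl7 was among the 4. Ribosomal protein genes have many near-identical processed copies, so the identity of these probesets is uncertain. The averaged genotype difference was above 0 for 26 of the 33 genes on their own chromosome (median 0.07), for 17 of the 18 on another (median 0.12) and for all 4 unclear ones. Genes with a tract near the start were above 0 in 16 of 18 cases (median 0.10), and those with an entry but no tract in 22 of 27 (median 0.07). No test was made between these classes.

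Exercise left the ribosomal protein transcripts with small differences and no calls. In wild-type muscle the difference was above 0 for 36 of 55 genes (47.7% of all genes), with a median of 0.03 against -0.01 over all genes. None passed the test, where 3.43% of all genes did. At an unadjusted p under 0.05, 3 were higher and 0 lower (7.51% and 8.61% of all genes), and arrays were apart for 4 genes higher and 2 lower (10% and 11% of all genes). In ERRα-null muscle 30 of 55 were above 0 (47.2% of all genes) with a median of 0.01, none passed the test (0.639% of all genes), and 0 were higher or lower at an unadjusted p under 0.05 (5.79% and 7.3%). Arrays were apart for 2 genes higher and 1 lower (8.99% and 10% of all genes). The 2 medians did not keep their sign: in wild type it was -0.01 with marker covariates, and in null muscle -0.06 without the arrays in which Xist exceeded Eif2s3y.

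**Figure D4:**
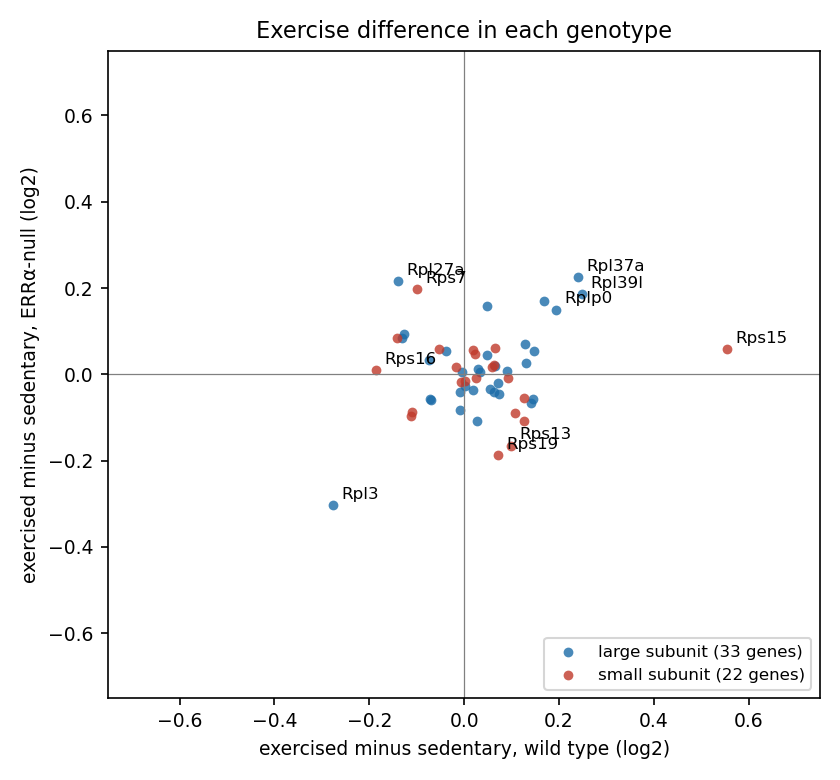
Log2 difference between exercised and sedentary muscle in wild-type (x axis) and ERRα-null mice (y axis) for the 55 tested ribosomal protein genes, coloured by subunit. Most points lie near 0 on both axes, Rps15 is highest in wild type at 0.55, and Rpl3 is lowest in both genotypes.

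Rps15, a protein of the head of the small subunit, had the largest exercise difference. It was at 5.25, 5.33 and 4.76 in sedentary wild-type and 5.53, 5.89 and 5.58 in exercised wild-type muscle, with no overlap. In null muscle it was at 5.51, 5.53 and 5.56 at rest and 5.94, 5.48 and 5.35 after exercise. The difference was 0.55 ± 0.18 in wild type (adjusted p = 0.129) and 0.06 ± 0.18 in null muscle (adjusted p = 0.923), and the interaction of -0.50 ± 0.25 had an adjusted p of 0.997. Its low sedentary wild-type values also gave the largest genotype difference at rest, 0.42 ± 0.18 (adjusted p = 0.558). Without sedentary wild-type replicate 3 the wild-type exercise difference was 0.38. The level of Rps15 lay near the limit for testing. Rps28, of the small subunit, was at -0.14 ± 0.10 in wild type and 0.08 ± 0.10 in null muscle (adjusted p = 0.556 and 0.776), with an interaction of 0.23 (adjusted p = 0.999, limma).

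In null muscle the highest exercise differences were 0.23 ± 0.17 for Rpl37a, 0.22 ± 0.18 for Rpl27a and 0.20 ± 0.14 for Rps7, with adjusted p of 0.622, 0.658 and 0.59. After Rpl3, the lowest were -0.19 ± 0.17 for Rps19 and -0.17 ± 0.12 for Rps13 (adjusted p = 0.691 and 0.611, limma). Sedentary and exercised arrays overlapped for all 5 genes.

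Rpl3, a protein close to the peptidyl transferase centre, had the most negative exercise difference, -0.29 ± 0.13 averaged over genotypes (adjusted p = 0.209). Its sedentary levels were 8.23, 8.56 and 8.22 in wild-type and 9.01, 8.26 and 8.12 in null mice, and its exercised levels 8.16, 8.04 and 7.97 and 8.15, 8.14 and 8.18. The highest values, 9.01 and 8.56, were those of 2 of the 3 arrays with high lymphocyte markers, and the third, sedentary wild-type replicate 3, was at 8.22, the lowest of its group. The difference turned to 0.13 with marker covariates and to 0.07 on a probeset among genes of its own chromosome, and was -0.15 without sedentary null replicate 1.

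Averaged over genotypes, the exercise difference was above 0 for 34 of 55 genes (48% of all genes) with a median of 0.01. No gene was called (6.57% of all genes), and 5 were higher and 1 lower at an unadjusted p under 0.05 (9.57% and 12.9%). Rplp0 came closest, at 0.17 ± 0.06 with an adjusted p of 0.0923. Rpl37a, a zinc finger protein of the large subunit, and Rpl39l had values of 0.23 ± 0.12 and 0.22 ± 0.10 (adjusted p = 0.285 and 0.217, limma). Rps9 and Rps10, of the small subunit, were at -0.10 ± 0.06 and -0.10 ± 0.07 (adjusted p = 0.317 and 0.46). Rpl39l was called without sedentary wild-type replicate 1 (0.31), and Rplp0 without exercised null replicate 1 (0.21). Rplp0 was at 0.08 without the arrays in which Xist exceeded Eif2s3y, 0.10 on a probeset among genes of its own chromosome and 0.11 with marker covariates, with adjusted p of 0.619, 0.452 and 0.755.

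Other genes of protein synthesis were taken from lists chosen with earlier results of these data known. Averaged over states, 17 of 18 other transcripts known for a pyrimidine tract lay above 0 by genotype (median 0.06), where 50.2% of all genes did. Eef2, counted among the 17, was at 0.00. Naca, of the nascent polypeptide-associated complex, was at 0.13 and Eif4b, an activator of the Eif4a helicase, at 0.17 (adjusted p = 0.207 and 0.251, limma). At rest 15 of 18 were above 0 (median 0.12) and after exercise 12 of 18 (median 0.04), and none was called in any comparison. Of 36 initiation factors, 25 lay above 0 by genotype on average (median 0.04), and of 9 elongation factors 6 did (median 0.02). Some genes stand in several of these lists, such as Eef1a1, Eef2, Eif3e and Npm1, so the counts of the lists are not independent. The 53 ribosome biogenesis genes had 27 above 0 (median 0.00) and the 27 genes of mTOR and translation control 14 (median 0.00). None of these genes was called by genotype.

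Some genes of these lists passed the test for exercise, where no ribosomal protein did. In wild-type muscle Mknk2, a kinase of the cap-binding protein Eif4e, rose by 0.74 ± 0.08 (adjusted p = 0.000304), and Eif4ebp1, an inhibitor of Eif4e, rose by 0.64 ± 0.12 (adjusted p = 0.0151). Rheb, the activator of mTORC1, rose by 0.44 ± 0.11 (adjusted p = 0.0455) and Larp4 by 0.35 ± 0.09 (adjusted p = 0.0469). The mTOR and translation control list had 13 of 27 genes above 0 (median -0.002), where 47.7% of all genes were above 0 and 3.43% were called. Of the ribosome biogenesis list, 42 of 53 lay above 0 (median 0.11), 2 were called higher, Gnl3 (nucleostemin) at 0.60 ± 0.11 and the transcription factor Myc at 0.73 ± 0.15, and Taf1b, of RNA polymerase I initiation, was called lower at -0.41 ± 0.08. In null muscle 26 of 53 lay above 0 (median -0.01), against 47.2% of all genes, and no gene of the lists was called, and none was called for the interaction. Among the elongation factors Eif5a2 fell by 0.75 ± 0.18 in wild type (adjusted p = 0.045, limma). With marker covariates the calls of Mknk2, Eif4ebp1, Rheb, Larp4, Gnl3, Taf1b and Eif5a2 were lost (adjusted p from 0.0626 to 0.368), although none of these differences was smaller than in the fit without covariates, at 0.77 for Mknk2 and 0.78 for Gnl3. The call of Myc held there. In a fit of only the wild-type arrays the calls of Myc, Eif4ebp1, Rheb, Larp4, Taf1b and Eif5a2 were lost. The call of Gnl3 was lost when the replicate block was added to that fit. It was also among those lost without the arrays in which Xist exceeded Eif2s3y. With the replicate block on all arrays, the call of Rheb was lost. The calls of Mknk2 and Gnl3 held without any single array, while for each of the other 6 genes there were at least 2 wild-type arrays whose omission, taken singly, ended the call. Averaged over genotypes, where 6.57% of all genes were called, Mknk2, Eif4ebp1, Rheb, Gnl3 and Myc were again called higher. Nop2 (0.30 ± 0.06), Grwd1 (0.25 ± 0.06) and Eif4e2 (0.23 ± 0.06) joined them (adjusted p = 0.00656, 0.0214 and 0.0404, limma). Taf1b and Ddit4l (-0.40 ± 0.08, adjusted p = 0.0145, limma) were called lower. With marker covariates only the averaged call of Myc, at 0.66 ± 0.11 without them, held. Without the arrays in which Xist exceeded Eif2s3y, all of them exercised, most of these averaged calls were also lost. That fit leaves a single exercised null array.

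Mitochondrial ribosomal proteins, which translate the messages of the mitochondrial genome, lay on the other side of 0. Averaged over states, 8 of 68 tested genes were above 0, with a median of -0.115, where the cytosolic proteins had 47 of 55 and 0.10. In sedentary muscle 15 of 68 were above 0 (median -0.095), with Mrpl34 called lower at -0.54 ± 0.08 (adjusted p = 0.0277), and after exercise 7 of 68 (median -0.122), with none called. Mrpl12, Mrpl16, Mrpl18 and Mrpl34, all of the large mitochondrial subunit, were called lower, by -0.37 ± 0.07, -0.34 ± 0.07, -0.29 ± 0.05 and -0.44 ± 0.05 (adjusted p = 0.024, 0.0308, 0.0191 and 0.00337, limma). The sedentary call of Mrpl34 was lost with the replicate block, in a fit of only the arrays compared, with marker covariates and on leaving out 5 of the 6 arrays singly. Of the 4 calls of the averaged comparison, only that of Mrpl34 held without any single array. Without the arrays in which Xist exceeded Eif2s3y, adjusted p of all 4 was above 0.05. The difference between the 2 families was not tested. By exercise, 42 of 68 lay above 0 in wild-type (median 0.04) and 35 of 68 in null muscle (median 0.01), with none called.

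**Figure D5:**
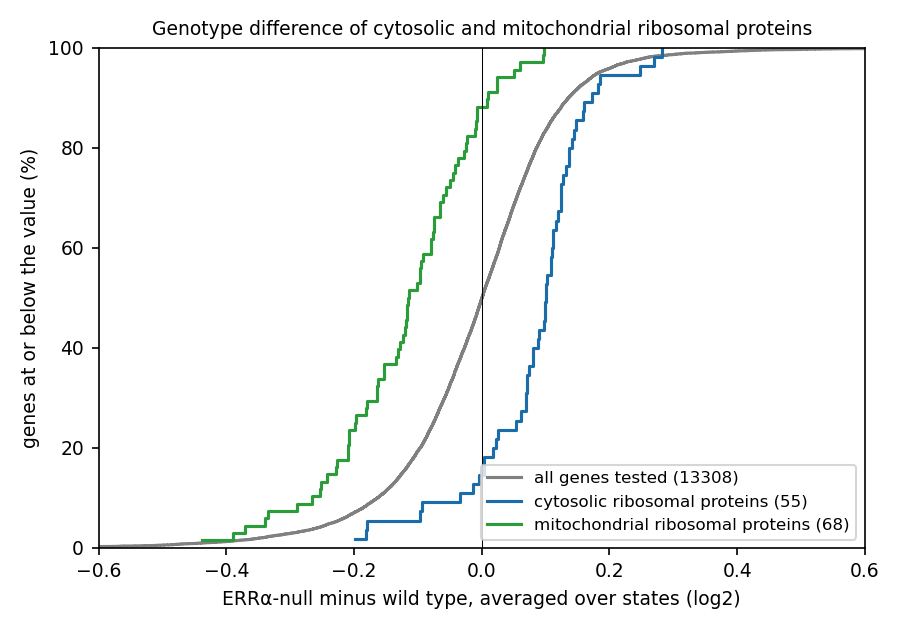
Cumulative share of genes (y axis, percent) at or below each log2 difference between ERRα-null and wild-type muscle averaged over states (x axis), for all 13308 tested genes, the 55 cytosolic and the 68 mitochondrial ribosomal protein genes. The cytosolic curve lies to the right of that of all genes, with a median of 0.10, except near its upper end, and the mitochondrial curve to the left, with a median of -0.115.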

How the data were processed

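Gastrocnemius RNA of 12 mice was hybridised to 1 array each. The deposited values are log2 expression per probeset. The submitters' processing notes name Transcriptome Analysis Console, Affymetrix Expression Console and RMA as tools of the authors. For their versions, their options and the build, nothing is given in the sources used here. RMA corrects background, gives all arrays 1 common distribution and summarises probes, so every difference is relative to the bulk of transcripts and changes of dim transcripts are compressed. Array medians ran from 5.15 to 5.26, correlations between arrays from 0.97 to 0.987, and 0 pairs were identical. Arrays have no read depth, and their number limits the precision.

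Of 41345 probesets, 23521 carried 1 symbol, 1814 several and 16010 none in the platform annotation. Another 14 ribosomal protein symbols occur only on probesets with several symbols, and 22 symbols were left out by the rule. Of the 68 genes, 25 had several probesets. Rpl6l and Rps4l are pseudogenes in RefSeq and were kept by the rule. Where a probeset sits was read from the genes of its 5 neighbours in number on each side, with at least 80% on 1 chromosome required. This placed 99.5% of 22942 single-symbol probesets on their gene's chromosome.

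A linear model of the 4 group means with 8 residual degrees of freedom was fitted to all genes tested with limma 3.58.1 (lmFit, eBayes with intensity trend) in R 4.3.3. P-values were two-sided and adjusted by the Benjamini-Hochberg method over 13308 genes, and a gene was called at an adjusted p under 0.05. Values after ± are standard errors. The script was tested on simulated data. Marker scores are means of centred log2 values over a list. The ribosomal protein genes and all lists were chosen with earlier results of these data known. Genes named are those called in any comparison, the 3 with the largest difference in each direction, the stalk proteins, Rpsa, Rps6, the paralogues with some partners and the called genes of each list. Rpl4, Rpl14, Rpl15, Rpl28 and Rpl29, and Naca and Eif4b, were chosen after their values were seen.

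Group titles share replicate numbers. Deviations from group means correlated at 0.312, 0.207 and 0.174 for the 3 same-numbered pairs of exercised wild-type and null arrays. Numbers were taken to pair those, a pairing that comes from the data and not from the labels. The same-numbered sedentary pairs correlated at -0.232, -0.278 and 0.347. The main fit has no term for the pairing, and the replicate block applies the numbers to all 4 groups. Over all 18 same-numbered pairs correlations ran from -0.278 to 0.347, with 9 over 0.1. Over the 36 differently numbered pairs of arrays from different groups they ran from -0.561 to 0.63, with 10 over 0.1. The correlations therefore do not establish that the numbers mark pairs. Alternatives were the replicate block, only the arrays compared, no trend, filters of 0% and 60%, 2 centrings, the mean of probesets, array weights, marker covariates, arrays left out and, chosen after the data were seen, the block on only the arrays compared and probesets among genes of their own chromosome.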

Additional observations from a re-analysis of the deposited data

How the results depend on the processing

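The median genotype difference of the ribosomal protein genes kept its sign under every alternative run, at rest, after exercise and on average. With probesets among genes of their own chromosome, 30 of 41 genes were above 0 at rest. The exercise medians did not keep theirs: in wild type the median was -0.012 with marker covariates, and in null muscle it was -0.056 without the arrays in which Xist exceeded Eif2s3y. The median interaction was -0.081 without those arrays and 0.016 with array weights. The count of 1 called gene by averaged genotype was 0 with the replicate block, no intensity trend, no filter on low values, median centring, marker covariates, own-chromosome probesets (where Rpl23a has none) or without the arrays in which Xist exceeded Eif2s3y, and 3 with array weights, when Rpl29 and Rpl4 joined Rpl23a. Leaving out single arrays gave counts from 0 to 2 for averaged genotype and from 0 to 1 for averaged exercise. The share of all genes called in each of these fits is not given here, so whether the counts differ from it cannot be told. The replicate block changed no other count of called ribosomal protein genes. The causes were not tested. The standard error of a single gene, with a median of 0.091 at rest, limits what a group of 3 arrays can show for differences near 0.1.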

Other observations

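Probesets that the rule did not choose gave values of the same size. Of 21 further probesets of these genes with distinct values above the tested level, 20 lay above 0 by genotype averaged over states (median 0.108). Of 47 probesets that name a ribosomal protein together with other symbols, 36 did (median 0.085), and of 8 probesets of pseudogene symbols 5 did (median 0.087). Many of these probesets may detect the same near-identical sequences as the chosen ones, so they are not independent measurements. The ribosomal protein Fau, a fusion with a ubiquitin-like protein, lay at 0.06 on average, with 0.12 at rest and 0.01 after exercise (adjusted p of the average 0.858, limma).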
